A study of Mus musculus with 12 samples.

Results

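The COP9 signalosome subunits are the 10 genes Gps1, Cops2, Cops3, Cops4, Cops5, Cops6, Cops7a, Cops7b, Cops8 and Cops9, taken by symbol from the 55376 gene symbols of a raw count table. Cops5 encodes JAB1, the subunit deleted in the mutant mice. The study used RNA-Seq to ask how loss of JAB1, with or without p21CIP1, altered oligodendrocytes of C57BL/6 mice at postnatal day 40. The cells were sorted from brain as O1+ and CD45-, O1 being an antigen of differentiating oligodendrocytes and CD45 a leukocyte marker. Each of the 3 genotypes had 4 samples, and each sample pooled 2 brains. The WT samples are numbered 1, 3, 5 and 6. The Cnp-Cre Jab1fl/fl samples, numbered 1 to 4, came from mice whose floxed Jab1 is deleted by Cre under control of the Cnp promoter. The Cnp-Cre Jab1fl/fl p21CIP1-/- samples (double mutants), numbered 1, 2, 3 and 5, carried the same deletion and in addition carried a knockout of p21CIP1 (Cdkn1a) in every cell, an allele that the study's methods list under a B6.129S6(Cg) line. The Cnp promoter is active from late oligodendrocyte precursors onward, so the deletion is aimed at the oligodendrocyte lineage and not at microglia or vessel cells. Which exons the floxed allele loses is not given in the sources used here, and a count per gene does not tell exons apart.

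The COP9 signalosome is a conserved complex that removes the ubiquitin-like protein NEDD8 from cullins, the scaffolds of the cullin-RING ubiquitin ligases. JAB1 (CSN5) is its metalloprotease, and CSN6, encoded by Cops6, carries a related MPN domain without the metal-binding residues. The PCI-domain subunits CSN1 (Gps1), CSN2, CSN3, CSN4, CSN7 and CSN8 form the scaffold, Cops7a and Cops7b encode alternative versions of CSN7, and Cops9 encodes a small acidic subunit. Cycles of cullin neddylation and deneddylation set which substrates the ligases ubiquitinate.

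The coding stretch of the metal-binding motif is shown because it sets Cops5 apart from the other subunits by sequence. A search of the translated coding sequences for the spacing of the 2 histidines, the serine and the aspartate of the JAMM motif, named for the JAB1/MPN metalloenzymes, found 1 match in Cops5 and none in the other 9 subunits. Psmd14, the deubiquitinase of the proteasome lid, also held 1 match, and the MPN relatives Psmd7, Eif3f and Eif3h held none. Capitals mark the codons of those 4 residues. The Cops5 stretch lies in exon 3 of 8 at chr1:10034053-10034112 on the reverse strand of GRCm38, and the Psmd14 stretch in exon 7 of 12 at chr2:61764865-61764924 on the forward strand.
Cops5: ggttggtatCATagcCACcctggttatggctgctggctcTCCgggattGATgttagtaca
Psmd14: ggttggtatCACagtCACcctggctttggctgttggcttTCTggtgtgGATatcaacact
Cops7a and Cops7b are shown because they were counted as separate genes although they fill the same place. Their aligned coding sequences were identical at 64.6% of 792 bases, and the translated residues at 58.3%. The longest identical run was 13 bases, and 0 of the 50-base stretches of Cops7a occur in another gene. Reads of Cops7a and Cops7b could therefore be told apart. Capitals mark the 11 bases that differ in the most alike 60 bases, at chr6:124964744-124964803 on the reverse strand for Cops7a and at chr1:86589262-86589321 on the forward strand for Cops7b.
Cops7a: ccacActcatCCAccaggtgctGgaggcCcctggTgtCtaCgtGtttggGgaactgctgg
Cops7b: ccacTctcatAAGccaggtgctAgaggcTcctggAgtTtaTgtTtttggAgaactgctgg

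Counts assigned to genes summed to between 61485556 and 153495112 per sample, and the subunits had between 1211 and 27226 counts per sample, so the spread between samples rather than counting error set the precision. WT replicate 3 differed from the other WT samples in depth and transcript length. It was the deepest library, with the lowest share of mitochondrial counts (1.46%). Its mean correlation with its group (r = 0.92 across genes) was the lowest in WT, but above that of every mutant sample (0.86 to 0.87). Relative to the other WT samples, its protein-coding transcripts shorter than 1 kb were lower by a median of 1.02 on the log2 scale (a difference of -1.02), and those longer than 4 kb were higher by 0.48. Double-mutant replicate 2 showed a similar tilt, with medians of -0.82 and 0.27 against the other double mutants. The subunits' fold changes, their order per kb and the Cops7a to Cops7b ratio are therefore also given without WT replicate 3. That sample had the least Cops5 in WT (46.3 CPM), and double-mutant replicate 2 the least in its group (44.2 CPM). Leaving out only the WT sample thus widens the difference in Cops5 and is not a neutral choice. A Dixon outlier check of 33 groups of 4, for subunit levels and the Cops7a to Cops7b ratio, found 0 with a sample apart. As a sum, the 10 mature oligodendrocyte markers were abundant in all samples. WT was at 45220 to 105104 CPM (counts scaled to TMM-normalized library size), Cnp-Cre Jab1fl/fl at 8952 to 35066 and double mutants at 16840 to 52534. By mean CPM, Mbp was the only 1 of the 10 higher than WT in either mutant. It averaged 10789 in WT, 13044 in Cnp-Cre Jab1fl/fl and 12603 in double mutants. The rest were lower, by amounts from those of Cldn11 (204.3, 101.7 and 184.7) to those of Opalin (1146, 58.4 and 174.3). The 10 microglial markers summed to 46.2 to 149.6 CPM in WT, against 802 to 2032 in Cnp-Cre Jab1fl/fl and 277 to 13358 in double mutants. The 8 endothelial markers summed to 329 to 695, 755 to 5305 and 646 to 5063 CPM. Astrocyte markers (8 genes) summed to 4943 to 11330 CPM in WT, at 3100 to 7719 in Cnp-Cre Jab1fl/fl and 3545 to 9964 in double mutants. Neuronal markers (8 genes) summed to 147.4 to 260.0, 239.1 to 756.5 and 230.6 to 742.2 CPM. Markers of oligodendrocyte precursors (6 genes) summed to 395 to 1059, 406 to 711 and 331 to 713 CPM. The precursor sum was mostly Ptprz1 (mean 706 CPM in WT, 440 in Cnp-Cre Jab1fl/fl and 470 in double mutants). By mean CPM, 5 of the 6 precursor markers were higher than WT in Cnp-Cre Jab1fl/fl, and 3 in double mutants. Ptprc, which encodes CD45, ranged from 0 to 1.53 CPM in WT, from 31.7 to 107.4 in Cnp-Cre Jab1fl/fl and from 3.11 to 101.1 in double mutants. In bulk samples, fewer cells of a type and less RNA per cell cannot be told apart.

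**Figure D1:**
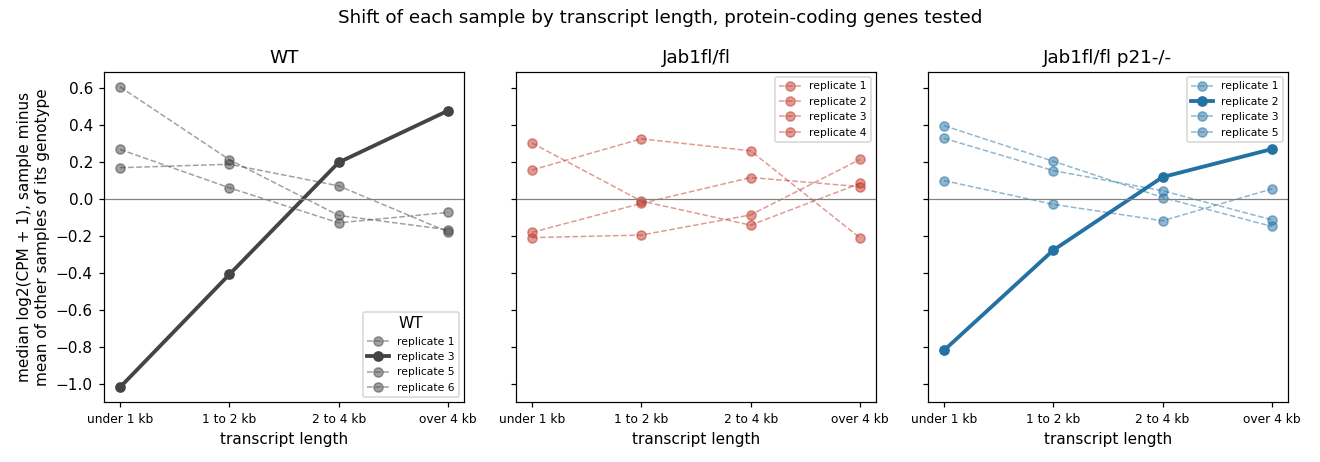
Median difference in log2(CPM + 1) between each sample and the mean of the other samples of its genotype, for 4 classes of transcript length (protein-coding genes tested). The thick lines, WT replicate 3 and double-mutant replicate 2, run from -1.02 and -0.82 for transcripts under 1 kb to 0.48 and 0.27 for those over 4 kb.

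Cops5, the deleted gene, was detected in every sample of every genotype. It lies at chr1:10024601-10038168 on the reverse strand of GRCm38, with 8 exons. In WT it was at 133.4, 46.3, 127.4 and 104.6 CPM in replicates 1, 3, 5 and 6. In Cnp-Cre Jab1fl/fl it was at 89.0, 65.2, 68.4 and 45.0 CPM in replicates 1 to 4. In double mutants it was at 47.3, 44.2, 90.4 and 52.3 CPM in replicates 1, 2, 3 and 5. The groups overlapped through WT replicate 3, which lay at the level of the lowest mutant samples, while the other WT samples lay above every mutant sample. WT replicate 3 also had the highest astrocyte (11330 CPM) and precursor (1059 CPM, mostly Ptprz1) marker sums of the 12 samples. Its mature oligodendrocyte sum (45220 CPM) was the lowest in WT, but WT replicate 6, with 104.6 CPM of Cops5, was close (46492 CPM). The part of these marker levels in the Cops5 level of WT replicate 3 was not tested. The means were 102.9 ± 39.7 CPM in WT, 66.9 ± 18.0 in Cnp-Cre Jab1fl/fl and 58.6 ± 21.5 in double mutants (SD, n = 4).

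The difference in Cops5 did not pass the test in either mutant. By other readouts, not analysed here, the study reports significantly less Cops5 RNA by qPCR in sorted O1+ oligodendrocytes of Cnp-Cre Jab1fl/fl mice. It also reports less JAB1 protein in their optic nerves. The log2 fold change against WT was -0.62 (SE 0.36, 95% interval -1.41 to 0.17, edgeR adjusted p = 0.350) in Cnp-Cre Jab1fl/fl and -0.82 (SE 0.38, 95% interval -1.67 to 0.03, edgeR adjusted p = 0.425) in double mutants. Between the mutants it was -0.19 (SE 0.33, 95% interval -0.92 to 0.54, edgeR adjusted p = 0.9999). Both intervals against WT include no change as well as a loss larger than 1 on the log2 scale. These p-values measure the spread between the pooled samples. Double-mutant replicate 3, the sample with the most Cops5 of its group, was also the one with the most microglial marker counts (13358 CPM). In Cnp-Cre Jab1fl/fl the sample with the most, replicate 4 (2032 CPM), had the least Cops5 (45.0 CPM), and replicate 1 (1953 CPM) had the most (89.0 CPM). The part of other cells in these Cops5 levels was not tested. Without double-mutant replicate 3 the log2 fold change of the double mutants was -1.11 (edgeR adjusted p = 0.418).

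Without WT replicate 3, Cops5 averaged 121.8 ± 15.2 CPM in WT (SD, n = 3), and every mutant sample lay below every WT sample. Fitted log2 fold changes were then -0.88 in Cnp-Cre Jab1fl/fl (edgeR adjusted p = 0.108) and -1.07 in double mutants (edgeR adjusted p = 0.316), past an unadjusted 0.05 and not past the adjusted one. Cops5 was the only subunit whose samples then lay wholly below WT, in each comparison, and none lay wholly above. Among all genes tested, 9.12% lay wholly below WT in Cnp-Cre Jab1fl/fl and 5.02% in double mutants. After an offset for transcript length, chosen once the tilt had been seen, Cops5 with all samples was at -0.66 (edgeR adjusted p = 0.246) and -0.89 (edgeR adjusted p = 0.310).

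**Figure D2:**
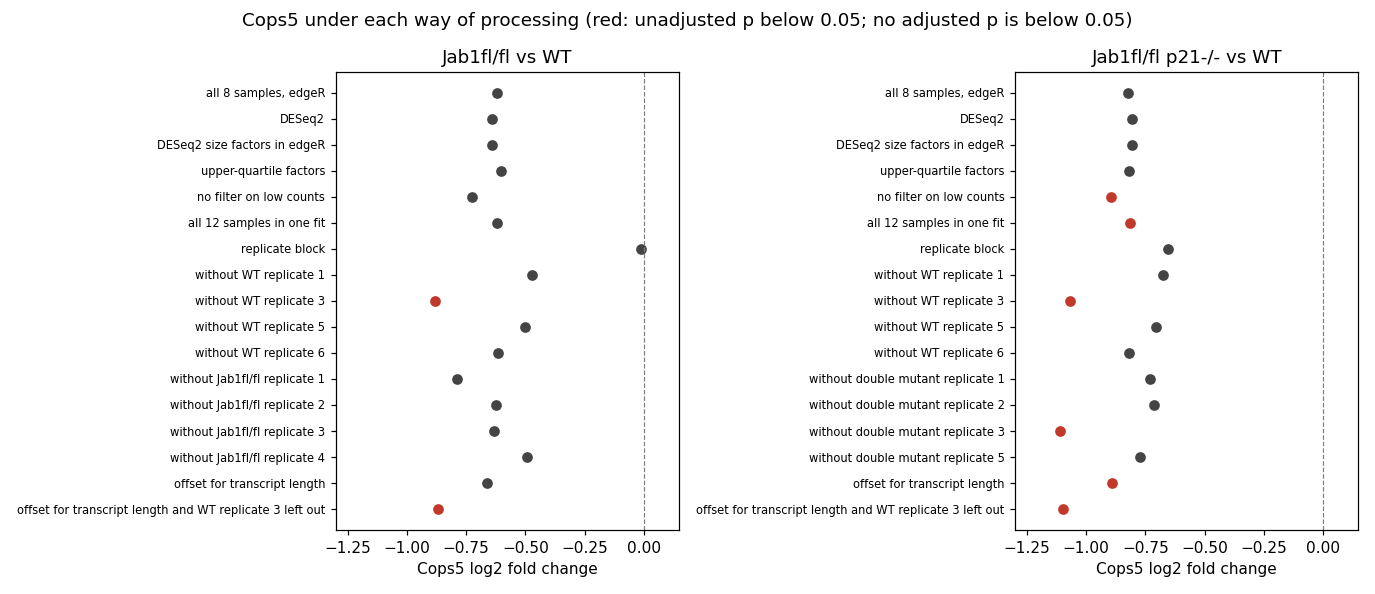
Cops5 log2 fold change against WT (x axis) under each way of processing (y axis), for Cnp-Cre Jab1fl/fl on the left and double mutants on the right. Each point is 1 fit, red points have an unadjusted p below 0.05, and no adjusted p passed the threshold.

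Cdkn1a, the other targeted gene, was at 15.98 to 85.3 CPM in WT, but 379 to 637 in Cnp-Cre Jab1fl/fl and 64.7 to 103.3 in double mutants. Every double mutant lay below every Cnp-Cre Jab1fl/fl sample, but the double mutants were not below WT and were not at 0, with 6180 to 13040 counts per sample. This does not match an absence of Cdkn1a RNA, and a count per gene does not show from which exons the reads came. By qPCR in sorted oligodendrocytes, a readout not analysed here, the study reports Cdkn1a as undetectable in double mutants. The difference between that result and these counts was not tested.

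No subunit passed the test in Cnp-Cre Jab1fl/fl oligodendrocytes. All 10 passed the filter on low counts and were among the 17716 genes tested, and 0 of 10 passed the threshold by edgeR (adjusted p 0.350 to 0.823), against 7.47% of all genes tested. At an unadjusted p below 0.05 the count was also 0 of 10, against 22.5% of all genes. DESeq2 called 0 of 10, against 15.3%. The levels of the 8 samples overlapped for all 10 subunits, whereas 17.1% of all genes did not overlap. Of the fold changes, 8 lay below 0 and 2 above, with a median of -0.31, beside 0.02 for all genes tested. Without WT replicate 3 the median was -0.41, again with 8 below 0 and 2 above, and the 9 subunits other than Cops5 ranged from -0.57 to 0.14.

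No subunit passed the test in the double mutants against WT. By edgeR 0 of 10 passed (adjusted p 0.425 to 0.992), against 0.181% of all genes, and 0 of 10 had an unadjusted p below 0.05, against 12.4%. DESeq2 called 0 of 10, against 4.94%, and all 10 overlapped, whereas 8.1% of all genes did not. The fold changes lay above 0 for 6 subunits and below 0 for 4, with a median of 0.07, beside 6.86e-05 for all genes tested. Without WT replicate 3 there were 5 on each side with a median of -0.04, and the 9 subunits other than Cops5 ranged from -0.29 to 0.33.

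Between double mutants and Cnp-Cre Jab1fl/fl, edgeR called 0 of 10 and 0% of all genes. At an unadjusted p below 0.05 the count was 0 of 10, against 5.02% of all genes. DESeq2 called 0 of 10, against 0.499%, and all 10 overlapped, whereas 3.22% of all genes did not. The fold changes lay above 0 for 8 subunits and below 0 for 2, with a median of 0.26, beside 0.02 for all genes tested. The comparisons share samples, so their directions are not independent of each other.

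**Figure D3:**
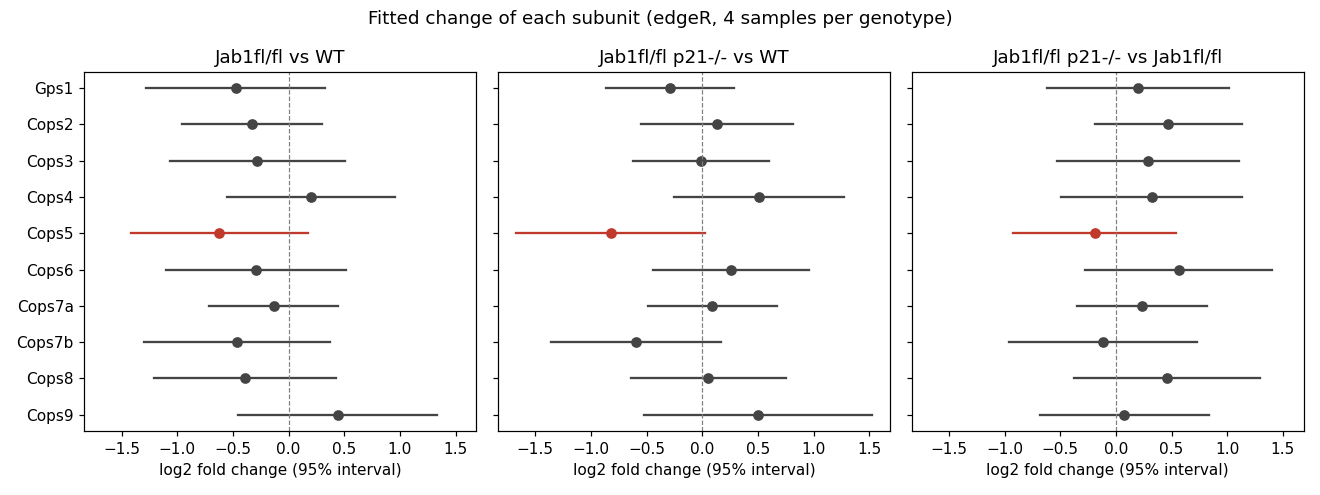
Fitted log2 fold change (points) with its 95% interval (lines) for each subunit in the 3 genotype comparisons, from edgeR with 4 samples per genotype. Every interval includes 0, and Cops5 (red) had the lowest point in each comparison.

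Cops6 (chr5:138161071-138164646 on the forward strand), the MPN partner of JAB1, was at 101.7 to 196.4 CPM in WT, at 61.8 to 197.4 in Cnp-Cre Jab1fl/fl and 125.2 to 253.2 in double mutants. The widest spread was among the Cnp-Cre Jab1fl/fl samples, where replicate 2 was highest and replicate 4 lowest. Against WT the log2 fold change was -0.29 in Cnp-Cre Jab1fl/fl (edgeR adjusted p = 0.704) and 0.26 in double mutants (edgeR adjusted p = 0.793). Its exons overlap those of Mcm7 on the other strand by 64 bp, 3.57% of its exonic length, and reads there cannot be told apart in an unstranded library.

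Of the PCI scaffold subunits, Gps1 (chr11:120784272-120789102 on the forward strand) split the Cnp-Cre Jab1fl/fl samples. Its WT values were 148.9 to 211.3 CPM, and those of double mutants were 124.1 to 178.2. Cnp-Cre Jab1fl/fl samples fell into a higher pair (160.9 and 191.1 CPM in replicates 1 and 2) and a lower pair (78.0 and 65.8 in replicates 3 and 4). The log2 fold change against WT was -0.48 (SE 0.37, edgeR adjusted p = 0.501). Of the 50-base stretches of Gps1 transcripts, 63.25% also occur in Gm9816, which had 52 to 318 counts per sample, so Gps1 counts depend on how reads with several matches were treated.

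Cops4 (chr5:100518309-100547803 on the forward strand) was at 65.7 to 131.2 CPM in WT, at 74.9 to 188.9 in Cnp-Cre Jab1fl/fl and 82.2 to 193.6 in double mutants. In double mutants the 3 samples other than replicate 2 lay above every WT sample, while replicate 2, at 82.2, lay within the WT range. The log2 fold change of the double mutants was 0.51 (SE 0.35, 95% interval -0.26 to 1.27, edgeR adjusted p = 0.592), and 0.33 without WT replicate 3. In Cnp-Cre Jab1fl/fl it was 0.20, and 0.003 without that WT sample. Cops2 (chr2:125830304-125859139 on the reverse strand), which docks the cullin-RING ligase, ranged from 40.0 to 74.5 CPM in WT, from 35.5 to 52.1 in Cnp-Cre Jab1fl/fl and from 39.2 to 76.9 in double mutants.

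Cops3 (chr11:59817795-59839838 on the reverse strand) was at 67.0 to 98.5 CPM in WT, and its lowest double mutant was replicate 3 at 58.4. In Cnp-Cre Jab1fl/fl it was at 39.4 and 40.1 CPM in replicates 1 and 3 and at 95.4 and 92.7 in replicates 2 and 4. Its fitted log2 fold changes were -0.28 and -0.01 against WT. Of its exonic length, 17.0% overlaps Nt5m and Gm16062 on the other strand, and of its 50-base stretches 185 also occur in Gm16062 and 40 in Nt5m. In Cnp-Cre Jab1fl/fl replicates 1 to 4, Nt5m was at 18.3, 53.5, 27.7 and 34.0 CPM, lowest in the same replicates as Cops3. Gm16062 was at 4.80, 2.78, 1.06 and 3.13 CPM and was highest of all 12 samples in replicate 1.

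Cops8 (chr1:90602981-90613341 on the forward strand), the smallest of the PCI subunits, was at 64.5 to 128.4 CPM in WT, at 48.7 to 133.8 in Cnp-Cre Jab1fl/fl and 64.7 to 124.9 in double mutants. In Cnp-Cre Jab1fl/fl replicate 2 was at 133.8 and the other 3 at 67.3 or less. Its log2 fold change was -0.39 (edgeR adjusted p = 0.601). Without replicate 2 it was -0.83 (edgeR adjusted p = 0.132), and the double mutants then lay 0.88 above Cnp-Cre Jab1fl/fl (edgeR adjusted p = 0.417). Without the same replicate, Cops6 lay 0.93 higher in double mutants than in Cnp-Cre Jab1fl/fl (edgeR adjusted p = 0.438).

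Cops9 (chr1:92637145-92641985 on the reverse strand), which has the shortest transcript of the subunits (653 bp), was the subunit lowest in WT replicate 3 relative to the other WT samples (log2 difference -1.77). It was at 172.8, 36.9, 107.8 and 108.0 CPM in WT replicates 1, 3, 5 and 6. It was at 123.7, 167.1, 113.2 and 173.5 CPM in Cnp-Cre Jab1fl/fl and at 182.5, 70.1, 167.0 and 188.3 CPM in double mutants. The lowest samples were WT replicate 3 and double-mutant replicate 2, those with fewer counts from short transcripts. The log2 fold changes of 0.44 and 0.50 against WT (edgeR adjusted p = 0.584 and 0.706) became -0.03 and 0.11 with the offset for transcript length. Without WT replicate 3 they were 0.14 and 0.22.

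**Figure D4:**
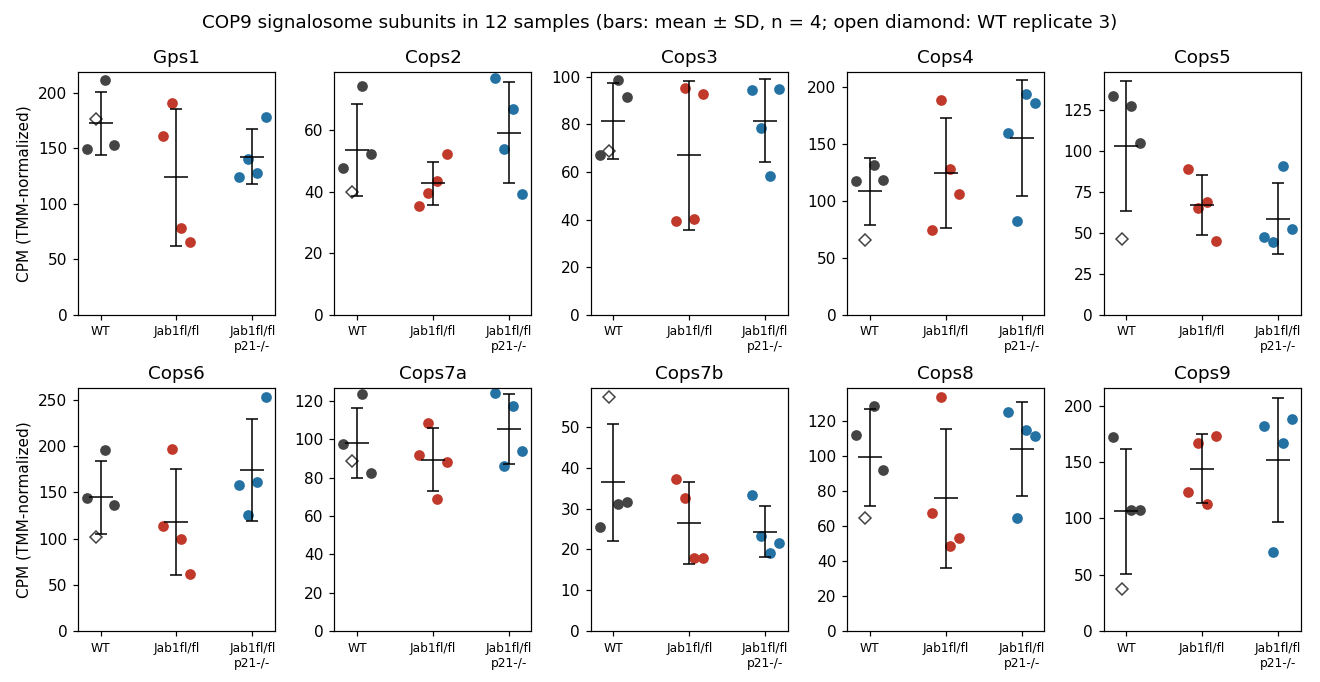
TMM-normalized CPM of each subunit in the 12 samples by genotype, with bars for the mean ± SD (n = 4). The open diamond is WT replicate 3, which is the lowest WT sample for Cops2, Cops4, Cops5, Cops6, Cops8 and Cops9 and the highest for Cops7b.

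Of the alternative CSN7 subunits, Cops7b (chr1:86582904-86609375 on the forward strand) was lower per kb of exon than Cops7a (chr6:124958413-124965538 on the reverse strand) in every genotype. Cops7a was at 82.2 to 123.5 CPM in WT, at 68.8 to 108.7 in Cnp-Cre Jab1fl/fl and 86.2 to 124.0 in double mutants. Cops7b was at 25.6, 57.5, 31.1 and 31.5 CPM in WT, at 37.2, 32.7, 17.8 and 17.8 in Cnp-Cre Jab1fl/fl and at 33.4, 23.3, 19.2 and 21.5 in double mutants. WT replicate 3 was the highest of the 12 samples for Cops7b, whose transcript, at 5383 bp, is the longest of the subunits. The log2 ratio of Cops7a to Cops7b CPM was 1.48 ± 0.63 in WT, 1.82 ± 0.42 in Cnp-Cre Jab1fl/fl and 2.13 ± 0.34 in double mutants (SD, n = 4). The ratio differed by 0.34 between Cnp-Cre Jab1fl/fl and WT, by 0.65 between double mutants and WT and by 0.31 between the mutants. None passed a two-sided exact permutation test over the 70 relabelings (p = 0.457, 0.171 and 0.371, adjusted p = 0.457 for each), of which the smallest possible p is 0.0286. Without WT replicate 3 the differences from WT were 0.05 and 0.36 (exact permutation p = 0.914 and 0.343).

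Per kb of exon, where CPM is divided by exonic length, Cops9 had the highest mean in WT and Cops7b the lowest. Cops9 is also the shortest subunit by exonic length (759 bp), and Cops7b (5383 bp) and Cops2 (3392 bp) are the longest. In CPM without the division, the WT mean of Cops9 (106.4) lay below those of Gps1 (172.3) and Cops6 (144.6). Cops2 (53.6) and Cops7b (36.4) were lowest in CPM as well. The part of length in this order was not tested. The means were 140.2 ± 73.1 CPM per kb for Cops9, 80.6 ± 21.8 for Cops6, 80.5 ± 13.3 for Gps1 and 61.8 ± 16.6 for Cops4 (SD, n = 4). Cops5 followed at 60.6 ± 23.4, Cops3 at 49.5 ± 9.72, Cops8 at 43.4 ± 12.1 and Cops7a at 43.3 ± 8.00. Cops2, at 15.8 ± 4.38, and Cops7b, at 6.76 ± 2.65, stood below the rest. The samples of neighbours in this order overlapped from Cops9 down to Cops7a, and Cops2 lay wholly below Cops7a and wholly above Cops7b. Cops5 ranked 5 of 10 in WT, 7 in Cnp-Cre Jab1fl/fl (39.4 ± 10.6) and 8 in double mutants (34.5 ± 12.7), and in each genotype its samples overlapped those of the subunit ranked just above it. Without WT replicate 3, Cops5 (71.7 CPM per kb) ranked 4 in WT and Cops4 (69.9) ranked 5, with no other subunit changing place. Other settings moved more subunits: 5 with the length of the longest coding transcript, and 4, 4 and 6 without WT replicates 1, 5 and 6. Cops9 stayed first and Cops2 and Cops7b last in each.

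**Figure D5:**
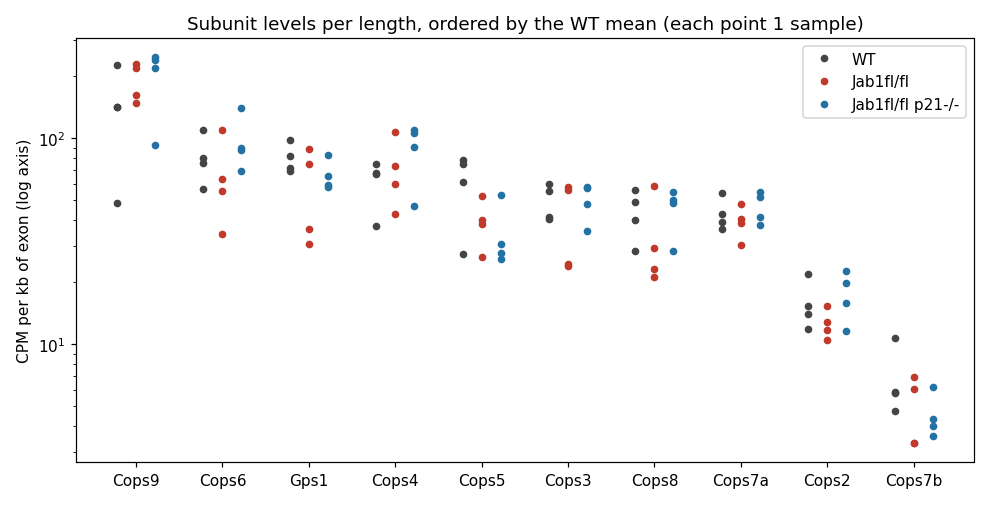
CPM per kb of exon (log axis) of each subunit, ordered by the WT mean, with each point 1 sample and 4 samples per genotype. Cops2 and Cops7b lie below the other subunits in all 3 genotypes.

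The neddylation machinery, on whose product the signalosome acts, was described from a list of 21 genes that holds Nedd8, its E1, E2 and E3 enzymes, CAND exchange factors, RING proteins and cullins. By edgeR 0 of 21 passed in Cnp-Cre Jab1fl/fl, in double mutants and between the mutants, against 7.47%, 0.181% and 0% of all genes. DESeq2 called 0 in each, against 15.3%, 4.94% and 0.499%. At an unadjusted p below 0.05 there were 5 of 21 in Cnp-Cre Jab1fl/fl, close to the 22.5% of all genes, and 0 in the other comparisons, against 12.4% and 5.02%. The median log2 fold change was -0.31 in Cnp-Cre Jab1fl/fl, -0.15 in double mutants and 0.21 between the mutants. For all genes tested it was 0.02, 6.86e-05 and 0.02. The smallest p in Cnp-Cre Jab1fl/fl belonged to the paralogous cullins Cul4a and Cul4b, with fitted values of opposite sign. Cul4a was at 34.1 to 64.3 CPM in WT and 16.2 to 34.2 in Cnp-Cre Jab1fl/fl (log2 fold change -0.90, SE 0.34, edgeR adjusted p = 0.136). Cul4b was at 8.40 to 19.7 CPM in WT and 17.7 to 39.8 in Cnp-Cre Jab1fl/fl (log2 fold change 1.11, SE 0.42, edgeR adjusted p = 0.140). In double mutants the smallest p belonged to Dcun1d2, a co-factor of the NEDD8 ligase (log2 fold change -0.84, edgeR adjusted p = 0.437), and Cul4b (0.94, edgeR adjusted p = 0.460). Between the mutants they belonged to the related Dcun1d5 (-0.52) and Dcun1d1 (0.61), with edgeR adjusted p = 0.985 and 0.999.

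The proteasome lid and the translation initiation factor eIF3 are built from the same PCI and MPN domains, and 17 of their subunits were listed. By edgeR 0 of 17 passed in each comparison, against the same 7.47%, 0.181% and 0% of all genes. At an unadjusted p below 0.05 there were 2, 1 and 0 of 17, against 22.5%, 12.4% and 5.02%. DESeq2 called 1 in Cnp-Cre Jab1fl/fl, against 15.3%, and 0 in the others, against 4.94% and 0.499%. The median log2 fold changes were 0.22 in Cnp-Cre Jab1fl/fl, 0.41 in double mutants, where all 17 lay above 0, and 0.15 between the mutants. All genes tested had medians of 0.02, 6.86e-05 and 0.02, and 8860 of 17716 lay above 0 in double mutants. Transcripts under 1 kb and of 1 to 2 kb lay 0.51 and 0.20 above WT in double mutants by class median. The part of transcript length was not tested for this list, and its fold changes without WT replicate 3 are not given. Eif3a, the largest eIF3 subunit, was at 126.8, 130.7, 174.9 and 174.7 CPM in WT and at 320.6, 196.1, 353.4 and 491.1 in Cnp-Cre Jab1fl/fl. All Cnp-Cre Jab1fl/fl samples lay above all WT samples. In that comparison 17.1% of all genes did not overlap in either direction, and 1753 of 17716 lay wholly higher. This log2 fold change of 1.16 (SE 0.32) did not pass by edgeR (adjusted p = 0.0519) and passed by DESeq2 (adjusted p = 0.00564). In double mutants Eif3a was at 184.0 to 289.6 CPM, also above all WT samples (log2 fold change 0.56, edgeR adjusted p = 0.438). There 8.1% of all genes did not overlap in either direction, and 801 of 17716 lay wholly higher. Eif3h, an MPN subunit, had a log2 fold change of 0.73 in Cnp-Cre Jab1fl/fl (edgeR adjusted p = 0.206), and its MPN partner Eif3f of 1.01 in double mutants (edgeR adjusted p = 0.252). Between the mutants the smallest p belonged to Eif3f (0.62) and Eif3a (-0.59), each with an edgeR adjusted p above 0.97.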

How the data were processed

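RNA-Seq was performed on 12 samples of sorted oligodendrocytes, 4 per genotype, with groups and replicate numbers from the sample labels. Per the labels and the study's methods, the authors made libraries with a SMART-Seq v4 kit, which does not mark strand, and paired-end reads were trimmed with Trimmomatic 0.32, aligned to GRCm38 with STAR 2.5.3a and counted with featureCounts (versions from the submitters' processing notes). The deposited table holds raw counts by gene symbol. Handling of reads with several matches is not given in the sources used here. There were 0 entries naming no gene and 0 columns of other samples. Positions and lengths came from GENCODE M21, and the study's methods name a later basic release.

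CPM used TMM factors of all 12 samples. The main test was edgeR 4.0.16 (R 4.3.3) quasi-likelihood on the 8 samples compared, over genes reaching 1 CPM in 4 or more samples, with Benjamini-Hochberg adjustment at 0.05. It was tested on simulated data with 1 fixed spread and with changes larger than that of any subunit. That check therefore does not show how often changes as small as those of the subunits would be found. DESeq2 1.42.0 was an alternative. The Cops7a to Cops7b ratio was tested with scipy 1.17.1, adjusted over 3 comparisons. The length offset was a lowess curve per sample (span 0.3) over the 17558 genes with a length, and it and its combination with leaving out WT replicate 3 were chosen after seeing the data. Other alternatives were DESeq2 size factors, upper-quartile factors, no filter, all samples in one fit, the replicate block and each sample left out. Nothing in the sources ties the pooled brains to litters or batches, and counts of samples of one genotype differed beyond sampling noise (lowest chi-square over its degrees of freedom, 212).

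The text names all 10 subunits, for each of the 2 gene lists the genes that passed or, where none did, the 2 with the smallest adjusted p in each comparison, and the 5 genes most like Cops5 across samples. Genes named outside the rule (Psmd14 and its MPN relatives for sequence, overlapping genes, Cdkn1a and Ptprc) serve as checks. The members and lists were chosen with earlier results of these data known.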

Additional observations from a re-analysis of the deposited data

How the results depend on the processing

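All counts of called subunits and neddylation genes stayed at 0 under every alternative run. The count of PCI and MPN relatives called in Cnp-Cre Jab1fl/fl was 1 with DESeq2, 1 with upper-quartile factors, 1 with all 12 samples in one fit, 1 with the offset for transcript length, and 0 to 1 with each sample left out (1 without Cnp-Cre Jab1fl/fl replicate 2). Cops5 stayed below 0 in all 16, 16 and 15 alternatives of the 3 comparisons, with edgeR or DESeq2 adjusted p of 0.106 to 0.999, 0.264 to 0.712 and at least 0.933. The replicate numbers are shared labels only: the deviations of same-numbered samples correlated between -0.19 and 0.08. With the replicate number as a block, Cops5 was at -0.01 and -0.65 against WT and -0.36 between the mutants. Only 2 numbers are shared between WT and Cnp-Cre Jab1fl/fl, and 3 in each other comparison.

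Small fold changes of other subunits changed sign. In double mutants against WT, Cops3 was at 0.00893 with DESeq2, 0.00891 with DESeq2 size factors, 0.00937 with upper-quartile factors, 0.00307 with all samples in one fit and 0.0600 with the replicate block, and Cops8 was at -0.0123 without the filter. Between the mutants the replicate block gave Gps1 -0.0419 and Cops9 -0.0258. In Cnp-Cre Jab1fl/fl against WT, Cops9 was at -0.0325 with the length offset and -0.21 with the offset and without WT replicate 3, a setting that put Cops8 at -0.0784 and Cops9 at -0.0723 in double mutants. With each sample left out, Cops4 ranged from -0.0849 (without Cnp-Cre Jab1fl/fl replicate 2) to 0.380 in Cnp-Cre Jab1fl/fl. In double mutants against WT, Cops2 ranged from -0.0151 to 0.349, Cops3 from -0.0968 to 0.13 and Cops8 from -0.11 to 0.229, and between the mutants Cops7b ranged from -0.299 to 0.11 and Cops9 from -0.0457 to 0.312. None of these passed. The level per kb of Cops7a in WT was 54.0 with the length of its longest coding transcript. The causes were not tested.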

Other observations

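The genes whose levels were most like Cops5 over the 12 samples, by Pearson's r of log2(CPM + 1), were 1700112D23Rik (r = 0.92), Blvra (0.87), Bscl2 (0.87), Ptpmt1 (0.83) and Prxl2a (0.82). Blvra encodes biliverdin reductase, Bscl2 the lipid droplet protein seipin and Ptpmt1 a mitochondrial phosphatase. These values are a description over 12 samples that share libraries and genotypes. 1700112D23Rik was at 0 to 3.61 CPM, near the filter. The other subunits had r with Cops5 from -0.19 (Cops3) to 0.40 (Cops8, rank 1382 of 17715 other genes), so the subunits did not rank among the genes most like Cops5.

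Among the 45 pairs of subunits, r ranged from -0.57 to 0.85 with a median of 0.33, and 39 were above 0. Expressed as log2 CPM minus the mean of the other 9 subunits in the same sample, Cops5 was at 0.11 ± 0.50 in WT, -0.22 ± 0.52 in Cnp-Cre Jab1fl/fl and -0.74 ± 0.49 in double mutants (SD, n = 4). The WT range was -0.59 to 0.57, and the double-mutant range was -1.20 to -0.08. The lowest WT value was WT replicate 3 alone: without it Cops5 was at 0.35 ± 0.19 in WT (SD, n = 3), with a range of 0.23 to 0.57. The Cnp-Cre Jab1fl/fl range was -0.74 to 0.30. Whether the WT and double-mutant ranges overlapped thus depended on that 1 sample. No share over all genes was computed for this measure. No test was made of these values. Cspp1 lies on the other strand at the Cops5 locus. Among all annotated transcripts, those of Cspp1 share 5.58% of the 50-base stretches of Cops5. In the basic annotation the exons of Cops5 and Cspp1 overlap by 0 bp. Cspp1 was at 37.5 to 63.3 CPM in WT, at 55.8 to 111.2 in Cnp-Cre Jab1fl/fl and at 35.3 to 73.1 in double mutants. Its part in the Cops5 counts was not tested.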
